A study of Mus musculus with 9 samples.

Results

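The proliferins are secreted glycoproteins of the prolactin and growth hormone family, and in mouse they are encoded by the *Prl2c* genes. Every probe set whose annotation lists *Prl2c2*, *Prl2c3*, *Prl2c4* or *Prl2c5* was taken. These are 4 of the 21335 gene symbols in the annotation, and they are carried by 2 of the 35557 probe sets. One is annotated to *Prl2c5* alone (probe set 10403579), and the other to *Prl2c2*, *Prl2c3* and *Prl2c4* together (probe set 10407797), so that these 3 genes share 1 value and could not be told apart. The genes were chosen by their differences between the groups of these same arrays, which were in view. The choice names no single comparison, so all 3 comparisons between groups count as used by it, and the values of the 2 proliferin probe sets are given below as a description, without a test.

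RNA of 3T3 cells, which are mouse fibroblasts that divide without limit in culture, was read on 9 Affymetrix Mouse Gene ST arrays. Wild-type cells, which express an irrelevant small hairpin RNA (shRNA), were taken either unstimulated (n = 3) or stimulated with TNF-α at 5 ng/ml for 1 h (n = 3). Trap-80 knock-down cells, which express an shRNA against this subunit of the Mediator complex, received the same dose for the same time (n = 3). The knock-down cells are a clonal line, so that the effect of the shRNA and the properties of the clone cannot be told apart, and unstimulated knock-down cells are not analysed here. Replicates are described as independent samples and carry the numbers 1 to 3 in each group.

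Proliferins were first met as messages that appear when resting mouse fibroblasts are given serum or growth factors, and they are also known as mitogen-regulated proteins. In the animal they are made mainly by the trophoblast giant cells of the placenta, from where they act on endothelial cells and promote the growth of vessels. They bind the receptor for insulin-like growth factor II and mannose 6-phosphate, the product of *Igf2r*, and their transcription is known to respond to AP-1, to the glucocorticoid receptor and, in trophoblast, to GATA factors. The related gene *Prl7d1* encodes proliferin-related protein, which opposes the growth of vessels.

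The promoters of the proliferin genes are close copies of one another where they could be compared. Upstream sequence was found for 2 of the 4 genes in a RefSeq table (GRCm38.p6), and it is shown here to let the copies be compared and to place the motifs named below. Each runs 5′ to 3′ on the strand of its gene and ends where the first of the annotated gene starts is reached. Capitals mark the bases at which the 2 sequences differ in their alignment. The *Prl2c3* sequence lies at chr13:12800094-12800329 on the minus strand and the *Prl2c5* sequence at chr13:13182466-13182700 on the plus strand.
Prl2c3: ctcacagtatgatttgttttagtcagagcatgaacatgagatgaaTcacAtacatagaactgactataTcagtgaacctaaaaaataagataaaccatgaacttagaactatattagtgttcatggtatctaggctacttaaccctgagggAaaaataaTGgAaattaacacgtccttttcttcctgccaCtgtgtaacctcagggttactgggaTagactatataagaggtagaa
Prl2c5: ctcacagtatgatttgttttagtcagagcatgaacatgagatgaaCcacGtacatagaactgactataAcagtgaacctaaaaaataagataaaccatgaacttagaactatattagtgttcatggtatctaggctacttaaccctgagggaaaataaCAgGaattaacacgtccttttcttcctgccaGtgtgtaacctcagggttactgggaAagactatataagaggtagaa
Of 236 aligned positions, 227 were identical (96.2%), 8 were substitutions and 1 was a gap. In the gene table of the same assembly, *Prl2c3*, *Prl2c2* and *Prl2c5* follow one another with 0 other protein-coding genes between them, and *Prl2c4* appears only as an older name of *Prl2c3*. Another 23 genes of the prolactin family form an unbroken run on the same chromosome, but 174 protein-coding genes separate *Prl2c5* from the nearest of them, *Prl*, so that in this assembly the proliferin genes stand apart from the main prolactin cluster.

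Motifs were searched on both strands of the 300-base windows around the gene starts, which hold 250 bases before and 50 after the start. The start used for the windows lies downstream of the annotated one at which the printed sequences (236 and 235 bases) end. Motif positions are counted from the former. An AP-1 motif (TGANTCA) was found once in *Prl2c3*, as TGAATCA with its first base at -209 from the start, and 0 times in *Prl2c5*, where T46C, counted from the first printed base of *Prl2c3*, falls within it. Of all 32851 promoter windows of that length, 7.81% hold this motif. The TATA box searched (TATAAA), the GC box (GGGCGG), the CCAAT box (CCAAT) and the κB consensus were found 0 times in either window, and they occur in 13.6%, 35.7%, 37.4% and 8.46% of all windows. The letters TATATAA, which were looked for only after the sequences had been read, stand at -30 in *Prl2c3* and at -31 in *Prl2c5* and are found in 3.24% of windows. A match of letters is a description of the sequence and does not show that a factor binds there.

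The arrays were closely alike, with medians of 4.47 to 4.59 on the log2 scale and pairwise correlations from 0.985 to 0.992 inside groups and from 0.981 to 0.991 across them. *Med17*, which encodes Trap-80, was lower in the knock-down than in the stimulated wild-type arrays by a log2 difference of -1.64 (standard error 0.09, limma adjusted p = 4.8e-05), and its highest knock-down value, 6.35, lay below its lowest stimulated wild-type value, 7.77 (p = 0.1 by a two-sided exact permutation test, which is the lower limit for 3 arrays against 3). All 12 measured fibroblast markers had a mean above 5.02, the median over the 23410 probe sets with a gene name, in each of the 3 groups. In the knock-down against stimulated wild-type cells, 2 of them rose and 1 fell (limma, 2.6% of all probe sets with a gene name fell and 3.36% rose), namely *Thy1*, a cell-surface glycoprotein, at 2.09 (adjusted p = 4.8e-04), *S100a4*, a calcium-binding protein, at 0.55 (adjusted p = 0.011), and *Pdgfra*, a receptor for platelet-derived growth factor, at -1.89 (adjusted p = 9.5e-05). Without the arrays numbered 3, *S100a4* missed the threshold (adjusted p = 0.074).

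In wild-type cells the proliferin probe sets gave clear signals, which lay lower in each Trap-80 knock-down array than in every wild-type array. For *Prl2c5* the log2 signals on the arrays numbered 1, 2 and 3 were 8.52, 8.75 and 7.33 in unstimulated wild type, 8.43, 8.66 and 7.85 after TNF-α, and 4.90, 5.16 and 3.64 in the knock-down. For the probe set shared by *Prl2c2*, *Prl2c3* and *Prl2c4* they were 8.64, 8.94 and 7.74 in unstimulated wild type, 8.53, 8.29 and 7.86 after TNF-α, and 4.76, 4.90 and 3.74 in the knock-down. In both probe sets the 2 wild-type groups overlapped and the knock-down group stood apart from them.

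**Figure D1:**
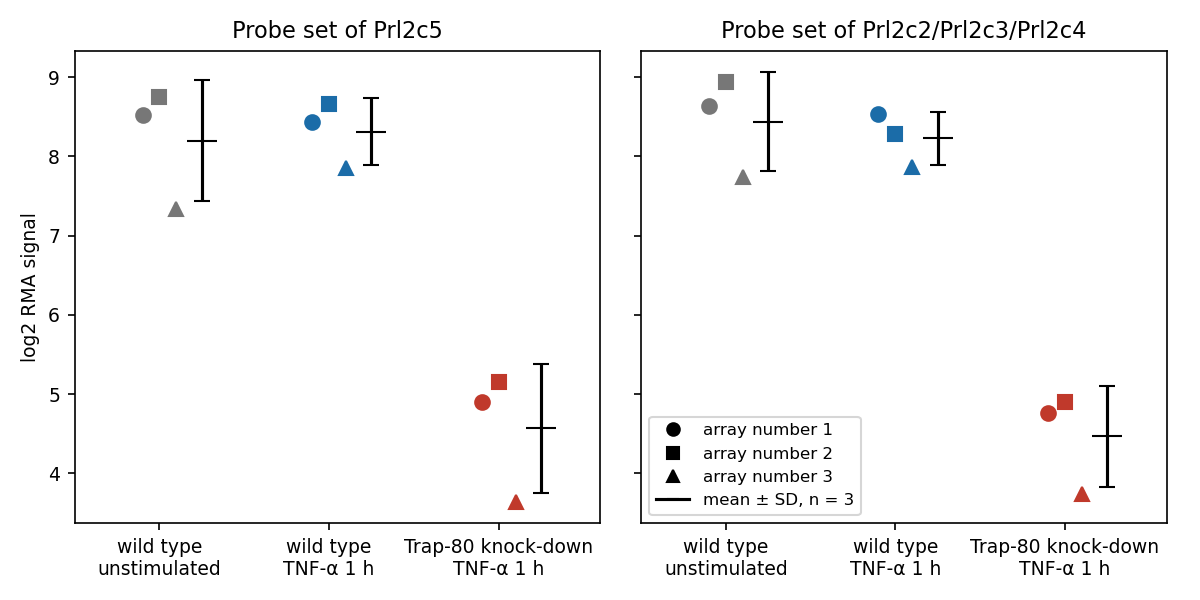
Log2 RMA signal (vertical axis) of the 2 proliferin probe sets on each array, by group (horizontal axis). Symbols stand for the array numbers and bars for the mean ± SD of 3 arrays. The knock-down arrays lie between 3.64 and 5.16, below all wild-type arrays, which start at 7.33, and the arrays numbered 3 are the lowest of each group.

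The mean of *Prl2c5* was 8.20 ± 0.76 (SD, n = 3) in unstimulated wild type, 8.31 ± 0.42 after TNF-α and 4.57 ± 0.81 in the knock-down. The mean of the shared probe set was 8.44 ± 0.62, 8.23 ± 0.34 and 4.47 ± 0.64 (SD, n = 3 each) in the same order. On both probe sets the order of the groups therefore had the knock-down lowest, and the 2 wild-type groups, which are neighbours in that order, did not differ beyond their spread. In a culture measured in bulk, fewer cells that express a gene and less RNA per cell cannot be told apart.

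Among stimulated cells, the log2 difference of knock-down minus wild type was -3.75 (standard error 0.46) for *Prl2c5* and -3.76 (standard error 0.37) for the shared probe set. On the deposited scale this leaves 7.45% and 7.38% of the wild-type signal, or 13.4-fold and 13.6-fold less. In order from the most negative, these were the differences at rank 3 and rank 2 among the 23410 probe sets with a gene name, of which 6 (0.0256%) lay at -3 or below. The groups did not overlap in either probe set, with gaps of 2.69 and 2.96 between the highest knock-down and the lowest wild-type array. The knock-down arrays lay wholly below the stimulated wild-type arrays in 10.0% of all probe sets with a gene name. These are values of the kind for which the genes were chosen, and nothing further is read from them. The knock-down means lay below 5.02, the median of these probe sets, where the size of a difference is less certain.

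After 1 h of TNF-α, the log2 difference in wild-type cells was 0.12 (standard error 0.46) for *Prl2c5* and -0.21 (standard error 0.37) for the shared probe set. The 2 probe sets thus differed in sign, and each value was smaller than its standard error in this fit. With the replicate number as a block in the model, the standard errors were 0.14 for *Prl2c5* and 0.15 for the shared probe set. The difference of the shared probe set then exceeded its standard error. Without the arrays numbered 3, an alternative chosen after the data were seen, the differences were -0.09 and -0.38 for the 2 probe sets. The stimulated and unstimulated arrays overlapped in both, whereas stimulated arrays lay wholly above unstimulated ones in 4.01% of all probe sets with a gene name and wholly below them in 6.18%. Taken between arrays of the same number, the difference for *Prl2c5* was -0.09 for number 1, -0.09 for number 2 and 0.52 for number 3. For the shared probe set it was -0.11, -0.65 and 0.13.

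Set against unstimulated wild-type cells, stimulated knock-down cells were lower by log2 differences of -3.63 (standard error 0.46) for *Prl2c5* and -3.97 (standard error 0.37) for the shared probe set. Both were without overlap, as were 12.6% of all probe sets with a gene name in this direction. This comparison uses the same knock-down arrays as the one between stimulated cells, and is no separate evidence.

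**Figure D2:**
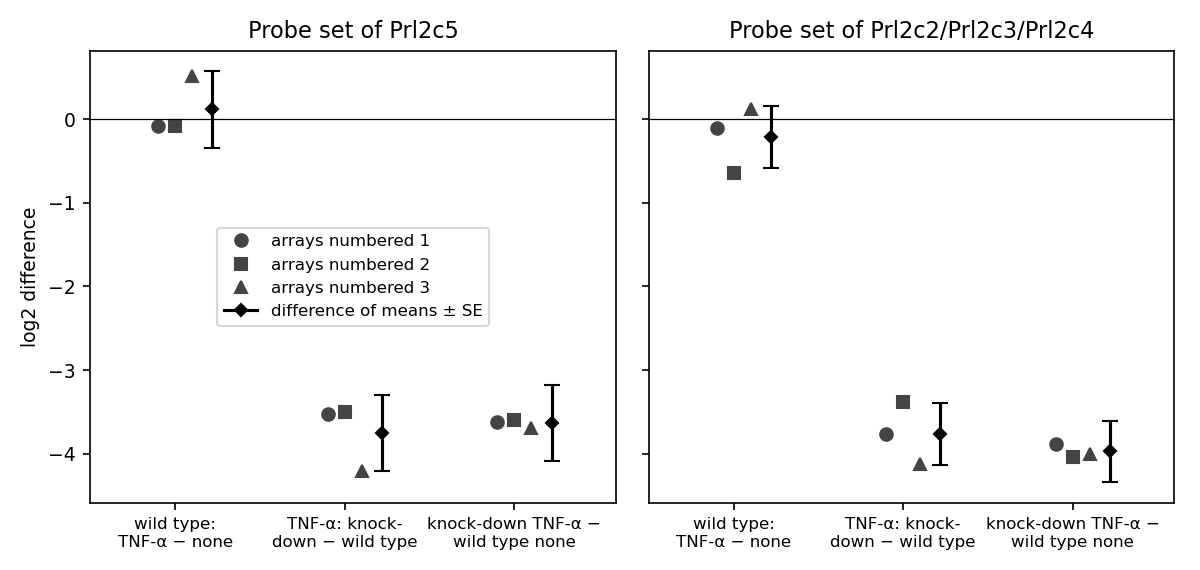
Log2 differences of the 2 proliferin probe sets (vertical axis) in the 3 comparisons (horizontal axis). Symbols are differences between arrays of the same number, and diamonds are differences of the group means with their standard error. The TNF-α differences in wild-type cells lie between -0.65 and 0.52, on either side of 0, and all differences that involve the knock-down lie between -4.21 and -3.39.

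The 2 probe sets also varied together inside the groups. The arrays numbered 3 were the lowest of their group in all 3 groups and in both probe sets. For *Prl2c5* they lay 0.87, 0.46 and 0.93 below the mean of the unstimulated wild-type, stimulated wild-type and stimulated knock-down groups, and for the shared probe set 0.70, 0.36 and 0.73 below. Of all probe sets with a gene name, 7.77% were lowest in the array numbered 3 in every group, and 10.0% were highest there. In array 3 of each group, 7 probe sets lay at least 0.4 below the group mean and 59 at least 0.4 above it, and 13 lay that far below in array 2 of each group. The 7 were those of *Serpinb2*, a plasminogen activator inhibitor, *Slco4a1*, an organic anion transporter, *Prl2c5*, *Socs2*, an inhibitor of growth hormone and prolactin receptor signals, *Tarbp1*, *Dusp4*, a phosphatase of MAP kinases, and *Lrig1*, a membrane protein that restrains growth factor receptors. They were listed after the proliferin values had been seen.

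Taken between arrays of the same number, the knock-down differences from unstimulated wild type were steadier than the levels. The knock-down differences between stimulated cells varied about as much as the levels in the stimulated wild type. Between stimulated cells, the knock-down difference of *Prl2c5* was -3.53, -3.50 and -4.21 for numbers 1, 2 and 3, and that of the shared probe set -3.77, -3.39 and -4.13. Against unstimulated wild-type cells the differences were -3.61, -3.59 and -3.69 (SD 0.051) for *Prl2c5* and lay between -4.04 and -3.88 (SD 0.082) for the shared probe set. With the replicate number as a block in the model, the standard error was 0.14 in place of 0.46 for *Prl2c5* and 0.15 in place of 0.37 for the shared probe set. Without the arrays numbered 3, an alternative chosen after the data were seen, the knock-down difference between stimulated cells was -3.52 and -3.58 for the 2 probe sets.

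Across the 9 arrays the log2 values of the 2 probe sets had a Pearson correlation of 0.993, and their deviations from the group means one of 0.972. These are descriptions of 9 arrays that share the same RNA for both probe sets. The value of *Prl2c5* minus that of the shared probe set lay between -0.41 and 0.37 on a given array. RNA of one gene may be read by the probes of another. This could not be checked, since only upstream sequences were compared and not those of transcripts or probes. The 2 probe sets are therefore not taken as independent measurements of separate genes.

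The rest of the prolactin family was dim in all groups. Of 23 other family genes looked for, 19 were measured, and their log2 signals ranged from 1.70 to 3.72 over all arrays, so that 0 of them had an array above 5.02. None passed the limma test over all probe sets with a gene name in any comparison (adjusted p under 0.05, met by 0.115% of all probe sets for TNF-α and by 5.96% for the knock-down). At an unadjusted p under 0.05, 1 was higher after TNF-α and 1 was lower in the knock-down between stimulated cells, while against unstimulated wild type 1 was higher and 3 were lower. Over all probe sets with a gene name, 7.1%, 17.4% and 20.5% were at an unadjusted p under 0.05 in these 3 comparisons. With the replicate number as a block, where 0.235%, 9.0% and 12.1% of all probe sets passed for TNF-α, the knock-down and the knock-down against unstimulated wild type, 0 of the family did. Their median knock-down difference was -0.04, against -0.02 over all probe sets with a gene name.

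*Prl2c1*, by name the closest of these to the proliferins, had the lowest knock-down difference in the family at -0.48 (standard error 0.18, adjusted p = 0.20 from limma). Its log2 signals were 3.04, 3.22 and 2.46 in unstimulated wild-type arrays, 2.81, 2.94 and 2.98 in stimulated wild-type arrays, and 2.35, 2.30 and 2.65 in knock-down arrays. All of these lie at the dim end of the scale, and the knock-down arrays overlapped with the unstimulated but not with the stimulated wild-type ones. Knock-down arrays lay wholly below stimulated wild-type ones in 10.0% of all probe sets with a gene name. The highest knock-down difference in the family was that of *Prl7a2*, at 0.11. After TNF-α the family ranged from -0.29 for *Prl5a1* to 0.20 for *Prl8a9*, and for the knock-down against unstimulated wild-type cells from -0.47 for *Prl2c1* to 0.16 for *Prl8a9*. *Prl7d1*, for proliferin-related protein, differed by -0.09 in the knock-down (standard error 0.10, adjusted p = 0.73). At such low signals a change in any of these genes would have been hard to detect.

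**Figure D3:**
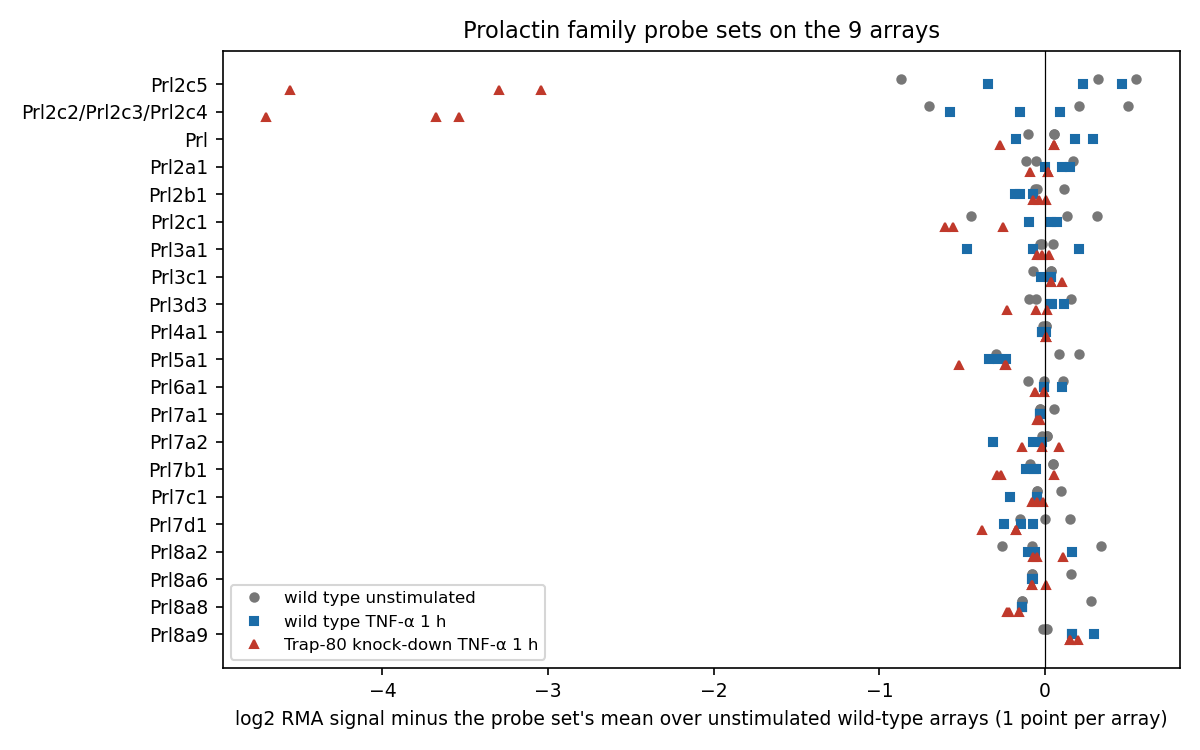
Log2 RMA signal of each prolactin family probe set on each array, minus its own mean over the 3 unstimulated wild-type arrays (horizontal axis), for the 2 proliferin probe sets and 19 other genes (vertical axis). Points are arrays and colours and symbols are groups. The proliferin values of the knock-down lie 3 or more below the unstimulated mean, while 0 of the 19 other genes passed the limma test.

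Markers of the placental cells that are the main source of proliferins in the animal were dim in these fibroblasts. Of 15 measured trophoblast markers, 0 had a mean above 5.02 in unstimulated wild-type cells and 1, *Hand1*, a transcription factor of trophoblast giant cells, at 5.03, did so in stimulated cells of either kind. *Tpbpa*, which marks the spongiotrophoblast, had means of 2.45, 2.32 and 2.25. The summed signal of the markers ranged over 7.12 to 7.28 on the log2 scale in unstimulated wild-type, 7.16 to 7.30 in stimulated wild-type and 7.18 to 7.23 in knock-down arrays, so that the ranges overlapped. None of the 15 passed the limma test in any comparison, with 1 at an unadjusted p under 0.05 in each of the 3 comparisons and 0 with the replicate block. Among 7 leukocyte, 7 epithelial and 6 endothelial markers, 0 passed in the 3 comparisons. At an unadjusted p under 0.05 in the knock-down between stimulated cells, 1 leukocyte marker was lower, 1 epithelial marker higher and 0 endothelial markers differed.

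Of the receptors and signal transducers of this hormone family, 10 of 12 genes were measured, and *Ghr*, the growth hormone receptor, was the only one to pass the limma test for the knock-down between stimulated cells. It rose by 0.53 (standard error 0.11, adjusted p = 0.021), from 7.37, 7.48 and 7.73 in stimulated wild-type to 8.12, 7.93 and 8.13 in knock-down arrays, and the groups did not overlap, as was so in this direction for 10.9% of all probe sets with a gene name. It missed the threshold without stimulated wild-type array 1 or 2 or knock-down array 1 or 3 (adjusted p = 0.087, 0.080, 0.079 and 0.083), with only the 6 arrays compared (0.056) and over all deposited probe sets (0.053). *Igf2r*, the receptor that binds proliferins, had stimulated wild-type values of 7.45, 7.43 and 7.57 and knock-down values of 7.25, 7.29 and 7.37, a difference of -0.18 that did not pass (adjusted p = 0.21). Its groups did not overlap, as was so in this direction for 10.0% of all probe sets with a gene name. Before adjustment, 1 gene of the list was higher and 2 were lower at p under 0.05 from limma. Over all probe sets with a gene name, 17.4% were at that level in either direction. With the replicate number as a block, *Stat3*, at -0.47, also passed (adjusted p = 0.0054, against 0.18 without it). For TNF-α, 0 of the 10 passed, and before adjustment 1 was higher and 1 was lower at p under 0.05. The list's median knock-down difference was -0.03, against -0.02 over all probe sets with a gene name.

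The AP-1 subunits, through which growth factors are known to act on proliferin promoters, gave no call for the knock-down between stimulated cells in the main fit of 9 arrays. All 10 genes of the list were measured and 0 passed the limma test there, with 1, *Jun*, higher at an unadjusted p under 0.05 and 0 with the replicate block. *Jun* had values of 7.60, 7.66 and 7.13 in unstimulated wild-type, 8.37, 8.38 and 8.74 in stimulated wild-type and 8.93, 9.04 and 9.31 in knock-down arrays. Its groups did not overlap, as was so in this direction for 4.01% of all probe sets with a gene name with TNF-α and for 10.9% in the knock-down. The differences of 1.03 with TNF-α and 0.60 in the knock-down missed the threshold (adjusted p = 0.085 and 0.074). *Fosl1* also had no overlap between stimulated groups, with 7.66, 7.70 and 7.66 in wild-type and 8.28, 8.16 and 8.16 in knock-down arrays. Its difference was 0.53 (standard error 0.32, limma adjusted p = 0.45). That standard error pools the spread of all 3 groups. The SD of *Fosl1* was 0.81 in unstimulated wild type, 0.03 in stimulated wild type and 0.07 in the knock-down. For TNF-α in wild-type cells, 8 of the 10 were higher at an unadjusted p under 0.05 from limma and 0 were lower. Over all probe sets with a gene name, 7.1% were at that level in either direction. After adjustment, which 0.115% of all probe sets with a gene name passed, *Junb* was the 1 subunit called, at 1.41 (standard error 0.09, adjusted p = 2.5e-04). With the block *Atf3*, a stress-induced factor of the same class, passed as well, at 1.09 (adjusted p = 0.044, against 0.63 without it). The median difference of the list was 0.48 for TNF-α and 0.06 for the knock-down, each against -0.02 over all probe sets with a gene name.

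Among 9 measured genes for other transcription factors, a list that includes known regulators of proliferin promoters, 3 rose in the knock-down between stimulated cells and 0 fell (3.36% of all probe sets with a gene name rose in this comparison). *Nr3c1*, which encodes the glucocorticoid receptor, rose by 0.65 (standard error 0.08, adjusted p = 0.0023). Its values were 7.63, 7.52 and 7.56 in stimulated wild-type and 8.30, 8.19 and 8.16 in knock-down arrays. *Gata2*, a zinc-finger factor that drives proliferin in trophoblast, rose by 0.79 (standard error 0.14, adjusted p = 0.0091), from 6.93, 6.77 and 6.65 to 7.74, 7.67 and 7.33. *Ets1*, a factor that acts with AP-1 on many promoters, rose by 0.53 (standard error 0.11, adjusted p = 0.025), but missed the threshold without any 1 of the 6 stimulated arrays (adjusted p = 0.059, 0.061 and 0.073 without wild-type array 1, 2 or 3, and 0.082, 0.084 and 0.068 without knock-down array 1, 2 or 3). For each of the 3 genes the knock-down arrays lay above all stimulated wild-type arrays, as they did in 10.9% of all probe sets with a gene name. *Ets1* also missed the threshold over all deposited probe sets (adjusted p = 0.059). With the replicate number as a block *Elk1*, a serum response factor partner, also passed, at 0.34 (adjusted p = 0.027, against 0.30 without it). For TNF-α 0 of the 9 passed, and before adjustment 2 were higher at p under 0.05.

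**Figure D4:**
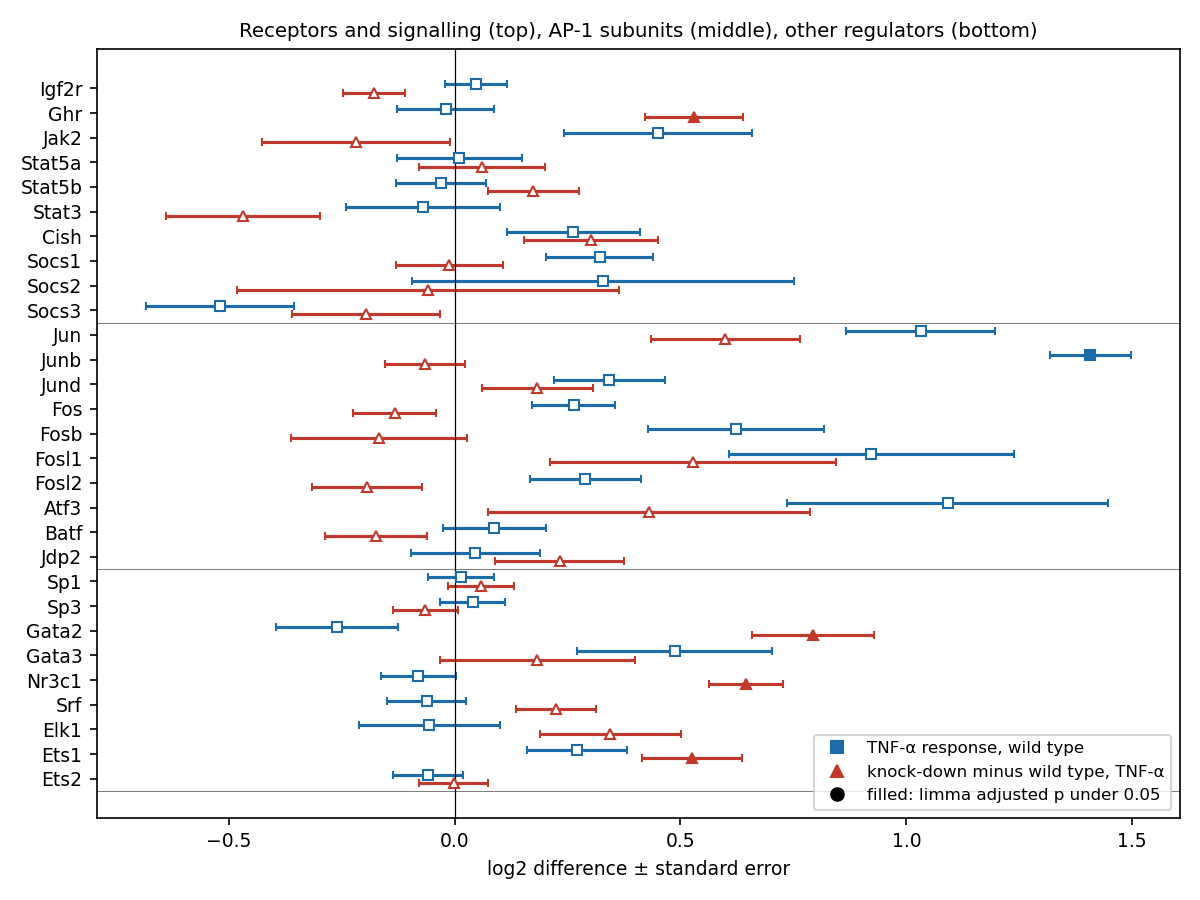
Log2 differences ± standard error (horizontal axis) of the measured receptor and signalling genes, AP-1 subunits and other transcription factors (vertical axis), for TNF-α in wild-type cells (squares) and for the knock-down between stimulated cells (triangles). Filled symbols passed the limma test. *Junb* is the filled square, at 1.41, and the filled triangles are *Ghr*, *Gata2*, *Nr3c1* and *Ets1*, all above 0.

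Against unstimulated wild-type cells, where 8.25% of all probe sets with a gene name passed (3.64% higher and 4.62% lower), stimulated knock-down cells were higher in 5 AP-1 subunits, 3 of the other transcription factors and 2 receptor or signalling genes and lower in 1 of the latter. This comparison joins the cell line and the stimulus. *Jun* rose by 1.63 (adjusted p = 6.1e-04), *Junb* by 1.34 (adjusted p = 7.4e-05), *Nr3c1* by 0.57 (adjusted p = 0.0034) and *Ets1* by 0.80 (adjusted p = 0.0027), and these 4 passed without any 1 of the 9 arrays. The others were *Jund* at 0.52, *Fosl1* at 1.45, *Atf3* at 1.52, *Gata2* at 0.53, *Ghr* at 0.51, *Cish* at 0.57 and *Socs3* at -0.72. *Fosl1* was lost without any 1 of the 3 knock-down arrays (adjusted p up to 0.082), and *Jund* and *Atf3* without unstimulated array 1 or 2, stimulated wild-type array 1 or knock-down array 2 or 3 (adjusted p up to 0.11 and 0.10). *Jund* and *Cish* were also lost without the arrays numbered 3 (adjusted p = 0.097 and 0.11). *Socs3* was lost without stimulated wild-type array 1 or any knock-down array (adjusted p up to 0.099), *Ghr* without unstimulated array 1 or 2 or knock-down array 1 or 3 (up to 0.080), *Cish* without any array but unstimulated 3 and knock-down 2 (up to 0.15), and *Gata2* without any array but stimulated wild-type 3 and knock-down 3 (up to 0.15). Apart from *Ghr*, these genes were also lost with only the 6 arrays compared and over all deposited probe sets (adjusted p from 0.051 to 0.12). With the replicate block *Gata3*, at 0.67, *Elk1*, at 0.29, and *Stat3*, at -0.54, passed as well (adjusted p = 0.0032, 0.043 and 0.0024, against 0.10, 0.35 and 0.098 without it).

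Several genes followed the proliferins closely over the 9 arrays. By Pearson correlation with the mean of the 2 proliferin probe sets, the most similar single-gene probe sets were those of *Cbfb*, a subunit of core-binding factor (0.997), *Nrn1*, neuritin (0.995), *Fgf10*, a fibroblast growth factor (0.994), *Mrpl40*, a mitochondrial ribosomal protein (0.990), *Tafa5*, a secreted chemokine-like protein (0.989), and *Ppip5k2*, an inositol phosphate kinase (0.989). The most opposite were *Fhl3*, a LIM-domain protein (-0.995), *Tbcel*, a tubulin cofactor-like protein (-0.989), and *Fads3*, a fatty acid desaturase (-0.989). These values rest on 9 arrays and mostly on the gap between the knock-down and the wild-type arrays, and they come without a test.

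The similar genes spanned a smaller range than the proliferins. *Fgf10* had means of 7.25, 7.10 and 5.51 in unstimulated wild-type, stimulated wild-type and knock-down cells, a knock-down difference of -1.59, and *Nrn1* had means of 11.3, 11.2 and 9.84, a difference of -1.34. *Cbfb* differed by -0.78 between stimulated cells. The likeness to the proliferins also held within groups. There the deviations from the group means had correlations of 0.975 for *Fgf10*, 0.973 for *Nrn1* and 0.955 for *Cbfb*. They were 0.904 for *Tafa5*, 0.869 for *Mrpl40* and 0.851 for *Ppip5k2*. In each of these genes, as in the proliferins, the array numbered 3 was the lowest of every group. By these deviations alone the highest were *Clasp2*, a microtubule-binding protein (0.993), and *Socs2* (0.987), whose values did not separate the knock-down from wild-type cells. The knock-down difference of that *Socs2* probe set was -0.11.

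**Figure D5:**
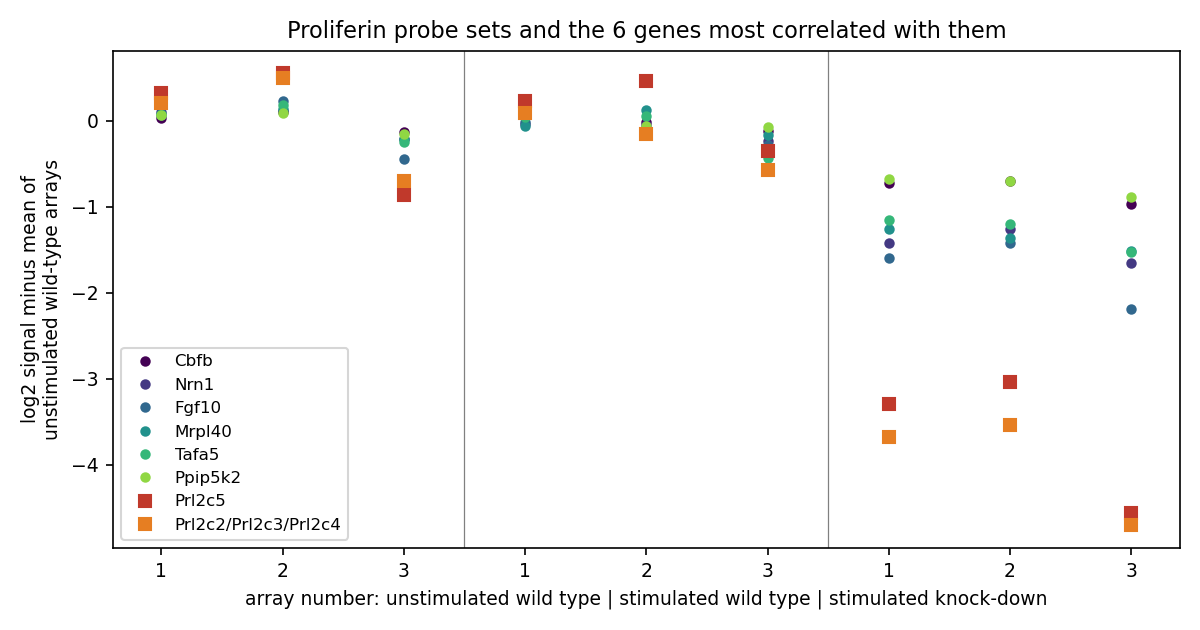
Log2 signal minus the mean of the unstimulated wild-type arrays (vertical axis) on each array, by group and array number (horizontal axis), for the 2 proliferin probe sets (squares) and the 6 genes with the highest correlation to them (circles). All 8 series drop in the knock-down arrays, the proliferins by more than 3 and the other 6 by less, with *Fgf10* the lowest of the latter.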

How the data were processed

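Total RNA from 3T3 fibroblasts was hybridised to Affymetrix Mouse Gene 1.0 ST arrays, 3 per group. The authors deposited log2 values made by RMA (background correction, normalization between arrays and 1 summary per probe set). The sources used here name no version of it. These values entered the fits as they were, dim probe sets included.

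Probe sets were named by the platform's annotation: 21789 list 1 symbol, 1621 several, and 12147 are unnamed here. The 23410 with a name entered 1 limma fit of the 3 groups (R 4.3.3 with limma 3.58.1, 3.20 prior degrees of freedom), with Benjamini-Hochberg adjustment over all of them and a threshold of 0.05. The model was first tested on simulated data with independent noise on each array. The simulation lacks the shared deviations of same-numbered arrays described below, so it does not test the fit under them. Where several probe sets carry a list gene, the brightest on average was used. No gene list was given a set test. The limma p-values set a difference between groups against the spread between replicate samples, pooled over the 3 groups. They do not cover the spread between clones. The number of arrays limits precision: the median standard error was 0.10.

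Same-numbered arrays deviated together (correlations 0.110 to 0.403 for TNF-α and 0.147 to 0.465 for the knock-down, but 0.002 to 0.221 between unstimulated wild type and knock-down), so the number was also tried as a block. What a number marks is not stated, and the pairing comes from these deviations. The probe sets, gene lists and the rule for named genes were chosen with earlier results of these data known. Named were *Med17*, list genes that passed, family extremes and the most correlated genes; others were named after their values were seen. Promoters came from RefSeq.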

Additional observations from a re-analysis of the deposited data

How the results depend on the processing

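Alternatives were the replicate block, only the 6 arrays compared, centring on array medians, quantile normalization and each array left out in turn. Leaving out all arrays numbered 3 was chosen after seeing the data. Under each, the differences of both proliferin probe sets moved by less than the pooled SD of the log2 levels in the 2 groups compared. For most settings this was bound to hold. The replicate block and the fit of 6 arrays cannot move a difference in this balanced design. Leaving out 1 of 3 arrays cannot move it by that SD. Only centring, quantile normalization and leaving out the arrays numbered 3 could have shown a larger shift. Without 1 array at a time, the knock-down difference between stimulated cells ranged from -4.04 to -3.28 for *Prl2c5* and from -3.98 to -3.40 for the shared probe set, the TNF-α difference from -0.32 to 0.39 and from -0.56 to 0.04, and the knock-down against unstimulated wild type from -4.07 to -3.17 and from -4.32 to -3.61. The sign of the TNF-α difference is therefore not settled. Some of these shifts exceed the SD of the differences between same-numbered arrays. *Med17* stayed past the threshold throughout.

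Counts of calls over all probe sets moved more. For TNF-α 27 passed, against 55 with the replicate block, 9 with only the 6 arrays compared, 41 among probe sets brighter than the median, 13 over all deposited probe sets, and 9 to 23 without 1 array. For the knock-down between stimulated cells 1395 passed, against 2108 with the replicate block and 738 to 1596 without 1 array; 56.3% of the calls were higher, and 68.8% after centring on array medians. For the knock-down against unstimulated wild type 1932 passed, and 1147 to 1944 without 1 array. Over the 9 gene lists, 1 gene passed for TNF-α, against 2 with the replicate block, with quantile normalization and among brighter probe sets, and 7 passed for the knock-down between stimulated cells, against 5 to 10 without 1 array and 11 without the arrays numbered 3. For the knock-down against unstimulated wild type 13 passed, against 7 with only the 6 arrays compared, 7 over all deposited probe sets and 7 to 15 without 1 array. The 10 came without unstimulated wild-type array 3. The block changed no call of a list gene other than *Stat3*, *Atf3*, *Gata3* and *Elk1*. In the other settings, list genes were followed by name only if they passed in the main fit. Genes gained there are counted but not named. The causes of these shifts were not tested. Dim signals in the knock-down limit how well the size of the proliferin differences is known.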
